A study of Mus musculus with 72 samples.

Results

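Keratin filaments, the cytolinker proteins that tie them to other structures, and markers of the ovarian surface epithelium were followed in mouse early secondary follicles, which hold a growing oocyte inside layers of granulosa cells. The 8 genes were chosen by symbol out of the 56691 gene identifiers of the deposited table, and each symbol had 1 row. They are the keratin genes Krt8, Krt18, Krt7 and Krt19, the cytolinkers Eppk1 and Plec, the filament gene Vim and the urothelial and mesothelial membrane protein gene Upk3b. The choice was made with their values in these libraries already seen, so their differences between FSH-treated and untreated follicles are given as a description without a test.

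Polyadenylated RNA of cultured follicles was sequenced after 24 h with 1 of 2 forms of follicle-stimulating hormone (FSH) or with none. FSH acts on the granulosa cells, which carry its receptor, and FSH21 is the hypoglycosylated and FSH24 the more fully glycosylated form. The title of the study names oocyte quality and interaction between cells under hypoglycosylated FSH as its subject. There were 6 groups of 3 libraries. The 4 treated groups received FSH21 at 1 ng/ml, FSH24 at 1 ng/ml, FSH21 at 10 ng/ml or FSH24 at 10 ng/ml. Follicles of the other 2 groups were untreated. All groups shared the base medium of α-MEM with GlutaMAX, albumin, fetuin and an insulin, transferrin and selenium supplement. The strain, the age of the mice and any pooling of animals are not stated in the labels. Libraries carry a number in their titles. The 1 ng/ml groups and one untreated group hold numbers 1, 5 and 6, and the 10 ng/ml groups and the other untreated group hold numbers 2, 3 and 4. Each treated group was set against the untreated libraries of its own numbers, and dose and number set cannot be told apart in treated follicles. Separate animals or cultures are not named behind the biological replicates, and the p-values below therefore measure only how far these libraries differ, which can include technical differences. Totals ran between 17.5 and 22.5 M counts per library.

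Keratins form filaments only as pairs of a type I and a type II chain, and Krt8 (type II) with Krt18 (type I) is the pair of simple, single-layered epithelia. Plectin, the product of Plec, and epiplakin, the product of Eppk1, are plakin family proteins that bind intermediate filaments, and plectin ties them to integrins, microtubules and actin. Vimentin, the product of Vim, is a type III filament protein that assembles on its own and is abundant in mesenchymal cells and in granulosa cells. Krt7, Krt19 and Upk3b mark the ovarian surface epithelium and mesothelium, cells that lie outside the follicle.

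The genes sit in 2 neighbourhoods of chromosome 15 and 3 single places (GENCODE M21 on GRCm38, positions counted from 1). Krt8 (chromosome 15, 101996698 to 102004482, minus strand) and Krt18 (chromosome 15, 102028180 to 102032027, plus strand) stand head to head with 23.7 kb between them. Krt7 (chromosome 15, 101411043 to 101430313, plus strand) lies in the same type II keratin cluster, 566 kb from Krt8. Eppk1 (chromosome 15, 76101481 to 76120195, minus strand) and Plec (chromosome 15, 76170974 to 76232574, minus strand) are 50.8 kb apart on the same chromosome. Krt19 lies on chromosome 11 (100140810 to 100148665, minus strand), Upk3b on chromosome 5 (136038496 to 136046487, plus strand) and Vim on chromosome 2 (13573927 to 13582826, plus strand). Counts of Krt8 were not whole in 18 of 18 libraries, those of Plec in 17 and those of Eppk1 in 8, as happens where RSEM divides reads that match more than 1 place, and their levels carry that uncertainty. The use of strand is not given in the sources used here, so reads of Krt8 and of the antisense gene Gm36026, which held 21.2 counts over all libraries, cannot be told apart. Eppk1 overlaps with BC024139, which held 72.6 counts in all against 4457 for Eppk1, and Plec with Parp10, which held 6761 against 158989 for Plec.

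RefSeq promoter windows of 300 bases (250 before to 50 after the annotated start, build GRCm38.p6) were found for 5 of the 8 genes, namely Krt8, Krt18, Krt7, Upk3b and Vim. The windows of 2 pairs are shown 5′ to 3′ on the gene's strand. Krt8 and Krt18 encode partner chains of which Krt8 alone stood apart between treated and untreated libraries, and Krt7 and Upk3b encode surface epithelium markers that were high in the same library. Capitals mark matches, on either strand, to any of 7 short motifs. These were the core of the cAMP response element (TGACG), the AP-1 site (TGANTCA), the GC box (GGGCGG), the site of NR5A receptors (AAGGTCA), the FOXO site (GTAAACA), the TEAD site (GGAATG) and the TATA box (TATAAA).
Krt8 (chr15:102004293-102004592, minus strand): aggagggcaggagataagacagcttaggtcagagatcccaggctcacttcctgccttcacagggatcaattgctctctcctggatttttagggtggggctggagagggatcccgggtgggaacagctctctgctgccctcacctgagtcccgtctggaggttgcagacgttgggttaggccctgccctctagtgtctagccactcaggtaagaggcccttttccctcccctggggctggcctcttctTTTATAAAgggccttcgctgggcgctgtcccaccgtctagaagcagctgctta
Krt18 (chr15:102027966-102028265, plus strand): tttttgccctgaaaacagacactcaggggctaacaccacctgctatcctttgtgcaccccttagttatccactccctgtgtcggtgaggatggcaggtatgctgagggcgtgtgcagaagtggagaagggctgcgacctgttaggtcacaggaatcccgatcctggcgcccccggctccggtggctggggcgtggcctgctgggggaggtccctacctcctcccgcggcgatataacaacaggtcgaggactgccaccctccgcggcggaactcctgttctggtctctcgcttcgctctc
Krt7 (chr15:101412153-101412452, plus strand): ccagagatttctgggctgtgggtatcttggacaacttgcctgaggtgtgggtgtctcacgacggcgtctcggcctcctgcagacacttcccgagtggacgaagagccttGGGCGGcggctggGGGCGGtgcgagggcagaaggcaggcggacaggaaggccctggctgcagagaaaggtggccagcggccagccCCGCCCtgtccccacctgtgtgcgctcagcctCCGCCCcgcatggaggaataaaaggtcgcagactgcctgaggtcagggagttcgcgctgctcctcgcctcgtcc
Upk3b (chr5:136038246-136038545, plus strand): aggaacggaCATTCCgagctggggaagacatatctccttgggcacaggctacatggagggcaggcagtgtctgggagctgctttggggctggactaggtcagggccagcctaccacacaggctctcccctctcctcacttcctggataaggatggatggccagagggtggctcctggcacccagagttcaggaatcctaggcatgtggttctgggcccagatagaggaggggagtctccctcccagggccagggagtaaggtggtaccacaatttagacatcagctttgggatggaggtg
The Krt8 window held 2 overlapping TATA box matches, 1 on each strand, and 13.6% of the 32851 promoter windows in the table hold this motif. None of the 7 motifs matched in the Krt18 window, which says only that these letters are not in it. The Krt7 window held 4 GC boxes, a motif of 35.7% of all windows. The Upk3b window held 1 TEAD match, a motif of 14.7% of all windows. Vim also had 1 TATA box match. The cAMP element core occurs in 20.8% of all windows, the AP-1 site in 7.81%, the NR5A site in 4.72% and the FOXO site in 3.65%, and none of these matched in the 5 windows. The windows of Krt18 and Krt7 were richer in CpG, with 17 and 21 of them, than those of Krt8 with 6 and Upk3b with 2.

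In untreated follicles the filament genes covered a wide range of levels per exon length. Levels are CPM (counts per M of the TMM-adjusted library total) divided by the exon length in kb, over the 6 untreated libraries. Vim was at 91.6 ± 4.76 CPM per kb, Plec at 22.7 ± 2.89, Krt8 at 18.4 ± 2.75 and Krt18 at 4.88 ± 0.454 CPM per kb (SD, n = 6). Eppk1 followed at 0.410 ± 0.130, Upk3b at 0.145 ± 0.0540, Krt19 at 0.115 ± 0.171 and Krt7 at 0.0253 ± 0.0209 CPM per kb. Plec and Krt8 lay within their spread of each other, as did Upk3b and Krt19 and then Krt19 and Krt7, while the libraries of Vim, Krt18 and Eppk1 did not overlap with those of their neighbours in this order. Krt8 transcript was thus several times as abundant per length as that of Krt18, its partner chain. None of the 8 genes differed between the untreated libraries 1, 5 and 6 and the untreated libraries 2, 3 and 4 (edgeR quasi-likelihood test, Benjamini-Hochberg adjusted over 18727 genes). The largest of these differences among the well-detected genes was that of Plec, at 442 ± 34.6 CPM in libraries 1, 5 and 6 and 379 ± 51.0 CPM in libraries 2, 3 and 4 (log2 0.22, SE 0.10, adjusted p = 0.901). That comparison called 0 of 18727 genes by edgeR, with 1020 at an unadjusted p under 0.05, and 1 gene by DESeq2.

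All 8 genes passed the filter on low counts, but 3 of them only through a few libraries. Krt8, Krt18, Eppk1, Plec and Vim had 10 or more counts in 18 of 18 libraries. Krt7 reached 10 counts in 4 libraries, Krt19 in 5 and Upk3b in 9, with Krt19 at 0 in 6 libraries and Krt7 at 0 in 2. In the bulk RNA of whole follicles, fewer cells of a type and less RNA per cell cannot be told apart.

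Libraries numbered 6 stood apart for the surface epithelium markers, and every result on Krt7, Krt19 and Upk3b at 1 ng/ml rests on them. Krt19 held 250 counts in library 6 of 1 ng/ml FSH24 and 0 counts in libraries 1 and 5 of that group. Upk3b held 439 counts in that library 6, against 5 and 16 counts in libraries 1 and 5. Krt7 held 118 counts in it, against 1 and 3 in the others. Library 6 of 1 ng/ml FSH21 came next, with 42 counts of Krt19, 26 of Krt7 and 74 of Upk3b, and untreated library 6 held 12, 9 and 14 counts in the same order of genes. The 3 markers summed to 807 counts in library 6 of FSH24, 142 in library 6 of FSH21 and 35 in untreated library 6, while the 15 libraries with other numbers ranged between 6 and 44 with a median of 15. The untreated library 6 therefore lay inside the range of the other libraries, and the FSH-treated libraries 6 lay above it.

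**Figure D1:**
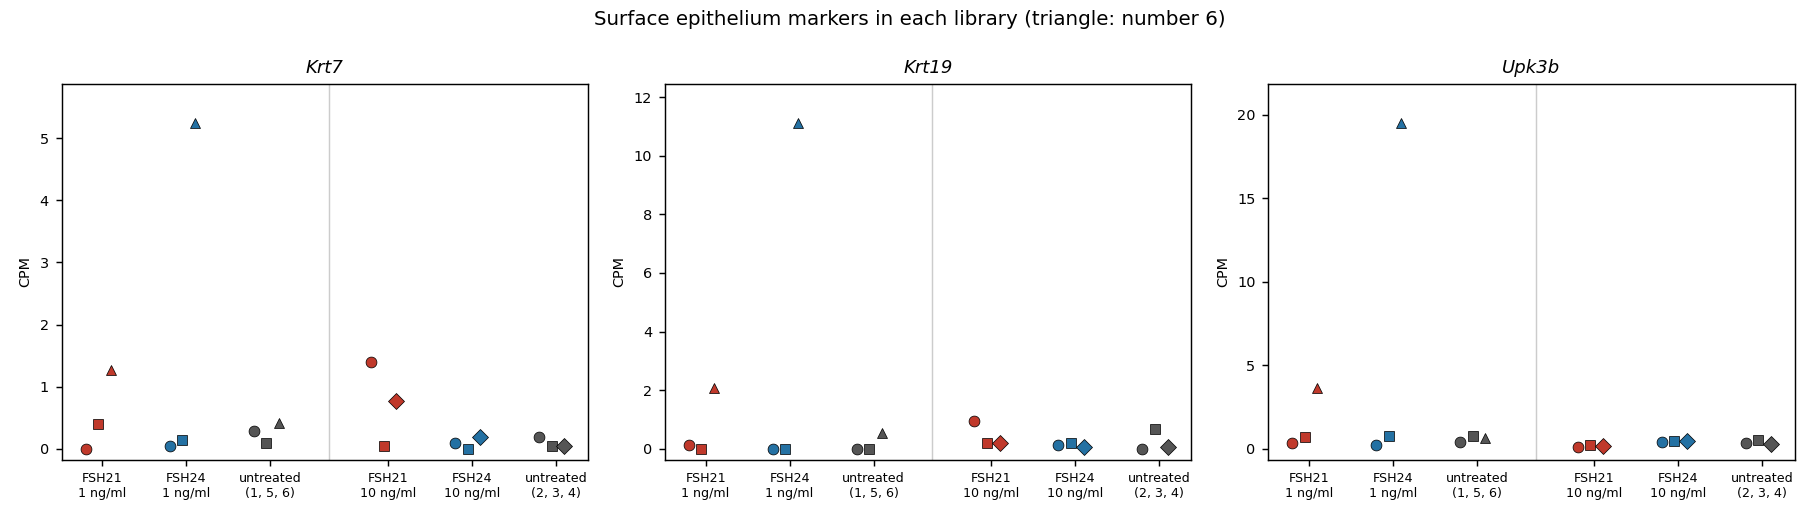
Levels of Krt7, Krt19 and Upk3b in CPM (linear axis) in each of the 18 libraries by group; triangles are libraries numbered 6 and other marks are the other numbers. Library 6 of 1 ng/ml FSH24 stands at 5.25 CPM for Krt7, 11.1 CPM for Krt19 and 19.5 CPM for Upk3b, and library 6 of 1 ng/ml FSH21 is next for Krt19 and Upk3b.

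Upk3b made up 54.4% of their summed counts in library 6 of FSH24 (exact Clopper-Pearson 95% interval 50.9 to 57.9%), 52.1% in library 6 of FSH21 (43.6 to 60.6%) and 40.0% in untreated library 6 (23.9 to 57.9%). The 15 libraries with other numbers mostly held few counts. In 11 of these 15 the interval of the Upk3b share overlapped that of library 6 of FSH24. Intervals from so few counts are wide, so their overlap cannot show the same make-up. The shares of Krt7 and Krt19 were not compared in this way. The next highest sum after the FSH-treated libraries 6, the 44 counts of library 2 of 10 ng/ml FSH21, had another make-up, with Upk3b at 4.55% (0.555 to 15.5%) and Krt7 at 56.8% (41.0 to 71.7%). These intervals cover counting error only.

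Other genes were high in the same library. Taking the genes at 1 CPM or more in library 6 of 1 ng/ml FSH24 and at 5 times or more the level of each of the 15 libraries with other numbers, a rule chosen after the values were seen, gave 8 genes, of which Upk3b and Krt19 are 2. The others were Podxl, which encodes the sialomucin podocalyxin, at 21.4 CPM against at most 2.44 CPM in the 15 libraries, Angptl7, Msln, Upk1b, Fndc1 and Gm13040. Msln encodes mesothelin and Upk1b a uroplakin, and both were in the list of 10 surface epithelium and mesothelium markers. Podxl was at 5.00 CPM and Angptl7 at 3.63 CPM in library 6 of FSH21, and 6 of the 8 genes were higher there than in any library of another number. In untreated library 6 this held for 3 of the 8.

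The whole marker list gave less contrast, since it holds Bnc1, basonuclin, which oocytes also express and which stood at 76.3 to 121 CPM in every library. The 10 markers summed to between 108 and 123 CPM with 1 ng/ml FSH21, 86.2 and 165 CPM with 1 ng/ml FSH24, and 103 and 127 CPM in untreated libraries 1, 5 and 6. At 10 ng/ml they summed to between 106 and 125 CPM with FSH21, 97.6 and 121 CPM with FSH24, and 106 and 133 CPM in untreated libraries 2, 3 and 4. Without Bnc1 and Lrrn4, a trim made after the values were seen, the other 8 markers reached 47.0 CPM in library 6 of FSH24 and 10.7 CPM in library 6 of FSH21, against 1.93 to 4.52 CPM in the 15 libraries of other numbers, but Krt7, Krt19 and Upk3b supply 35.9 and 6.96 CPM of these sums. The 5 markers left without them summed to 11.1 CPM in library 6 of FSH24, 3.72 CPM in library 6 of FSH21 and 2.51 CPM in untreated library 6, against 1.39 to 3.21 CPM in the 15 other libraries. Lrrn4, left out of these sums, did not follow their order. It stood at 14.5 CPM both in library 6 of FSH24 and in untreated library 6, above every library of another number. In library 6 of FSH21 it was at 9.17 CPM, among the libraries of other numbers. Nkain4, kept in the sums, was at 0.356 CPM in library 6 of FSH24, below the 0.725 CPM of library 1 of that group. No marker of the whole list was at 0 in every library. Markers of other cells were summed in the same way. The 10 granulosa markers were lowest in library 6 of FSH24, at 6462 CPM, with 7683 CPM in library 6 of FSH21 and 7506 CPM in untreated library 6, against 6959 to 9152 CPM in the 15 other libraries. The 10 stroma and smooth muscle markers were at 5136 CPM in library 6 of FSH24, 4641 CPM in library 6 of FSH21 and 5353 CPM in untreated library 6, the highest of all, against 3024 to 5299 CPM in the 15 others. For the 10 oocyte markers the libraries numbered 6 lay within the range of the others. The 8 endothelial markers summed to between 90.3 and 93.0 CPM in libraries numbered 6 and to between 67.0 and 102 CPM elsewhere. The 8 immune markers summed to between 2.54 and 5.00 CPM in libraries numbered 6 and to between 1.05 and 6.00 CPM elsewhere. The part of cells from outside the follicle in these values was not tested.

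With library 6 in the groups, the fitted differences of the markers at 1 ng/ml were large and uncertain. Krt19 was at 11.1, 0 and 0 CPM with 1 ng/ml FSH24 and at 0.547, 0 and 0 CPM in untreated libraries (numbers 6, 1 and 5 in both), a log2 difference of 4.29 (SE 2.08). Upk3b differed by 3.45 (SE 1.22) and Krt7 by 2.76 (SE 1.45) in the same comparison. Without the 3 libraries numbered 6 the log2 differences were 0.00 for Krt19, with no count in any library, −0.29 for Upk3b and −0.94 for Krt7. With 1 ng/ml FSH21 the differences were 1.93 (SE 2.15) for Krt19, 1.30 (SE 1.23) for Upk3b and 1.05 (SE 1.51) for Krt7, and without libraries 6 that of Upk3b was −0.23 and that of Krt7 0.10. At 10 ng/ml, where no library carries the number 6, Upk3b was at 0.112, 0.229 and 0.192 CPM with FSH21, against 0.374, 0.550 and 0.271 CPM in untreated libraries. All 3 treated libraries were lower, as for 12% of all genes tested, but this is 2 to 5 counts against 6 to 12 counts (log2 −1.12, SE 1.62). With 10 ng/ml FSH24 Upk3b had 9 to 10 counts, among the untreated values. Krt7 held 25, 1 and 16 counts with 10 ng/ml FSH21 and 2, 0 and 4 with 10 ng/ml FSH24. Its untreated libraries held 4, 1 and 1 (numbers 2, 3 and 4 in each). The log2 difference of Krt7 with FSH21 ran from 2.05 to 3.83 when 1 library was left out, but the libraries overlapped. Krt19 held 17, 4 and 4 counts with FSH21 and 3, 4 and 1 with FSH24, against 0, 15 and 1 in untreated libraries.

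Of the 4 keratin genes, Krt8 alone separated treated from untreated libraries, with both forms at 10 ng/ml and with FSH21 at 1 ng/ml. It stood at 69.8, 72.5 and 73.7 CPM with 10 ng/ml FSH21 and at 74.7, 66.9 and 65.9 CPM with 10 ng/ml FSH24, against 42.7, 28.6 and 38.9 CPM in untreated libraries (numbers 2, 3 and 4 in each). Every treated library was above every untreated one, as for 15.7% of all genes tested with FSH21 and 13.8% with FSH24, and the level was higher by 1.96 times on average for FSH21 (log2 0.97, SE 0.12) and 1.88 times for FSH24 (log2 0.91, SE 0.12). With 1 ng/ml it stood at 54.9, 51.0 and 44.8 CPM with FSH21 and at 39.0, 43.0 and 35.2 CPM with FSH24, against 36.0, 39.1 and 30.8 CPM in untreated libraries (numbers 1, 5 and 6 in each). The FSH21 libraries lay above all untreated ones, as for 6.75% of all genes tested (log2 0.51, SE 0.12), and the FSH24 libraries overlapped with them (log2 0.15, SE 0.12).

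Krt18, the partner chain in the same filament, did not separate the groups at any dose. It lay at 9.66, 7.21 and 6.66 CPM with 10 ng/ml FSH21 and at 8.32, 6.14 and 6.91 CPM with 10 ng/ml FSH24, against 6.50, 6.56 and 7.33 CPM in untreated libraries. The lower dose gave 8.62, 6.61 and 6.18 CPM with FSH21 and 6.88, 7.71 and 7.21 CPM with FSH24, against 6.76, 8.20 and 6.70 CPM in untreated libraries. All 4 treated groups overlapped with their untreated libraries, and at 10 ng/ml the log2 difference was 0.20 with FSH21 and 0.07 with FSH24. Both were smaller at the lower dose, with −0.02 for FSH21 and 0.01 for FSH24 (SE 0.17 in each).

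The level ratio of the partner chains moved with Krt8. Krt8 stood above Krt18 per exon length by 6.94 ± 1.46 times with 10 ng/ml FSH21 and 7.20 ± 0.717 times with 10 ng/ml FSH24, against 3.97 ± 0.812 times in untreated libraries (SD, n = 3). The lowest treated ratio was 5.31, in library 2 of FSH21, and the highest untreated one 4.82, also in library 2. With 1 ng/ml the ratio was 5.22 ± 0.499 with FSH21 and 3.95 ± 0.311 with FSH24, against 3.59 ± 0.276 in untreated libraries. The FSH21 ratios were all above the untreated ones, and those of FSH24 overlapped with them.

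**Figure D2:**
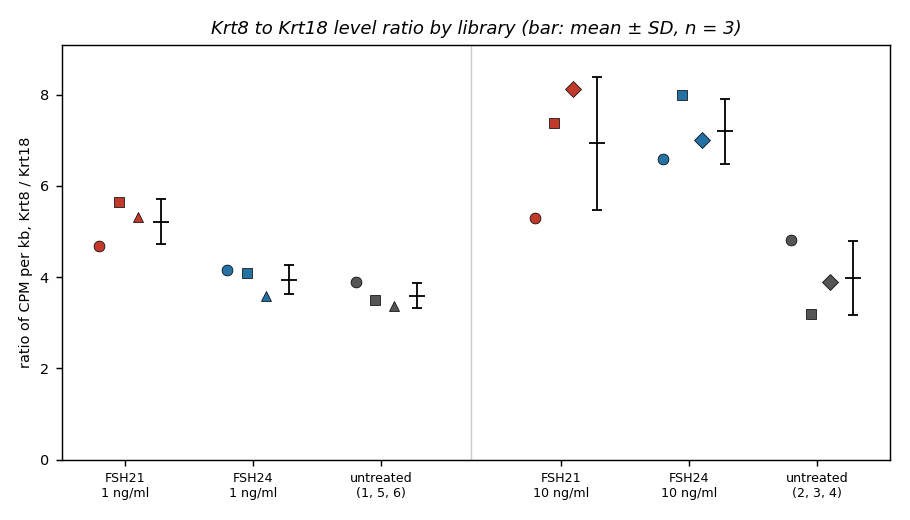
Ratio of Krt8 to Krt18, each in CPM per kb of exon, in each library by group, with the mean and SD of 3 libraries beside the points. Both 10 ng/ml groups lie above their untreated libraries, at means of 6.94 and 7.20 against 3.97.

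Eppk1, the gene of the keratin-binding cytolinker epiplakin, showed the largest fold of the well-detected genes. It stood at 16.4, 24.1 and 24.1 CPM with 10 ng/ml FSH21 and at 14.8, 24.8 and 19.7 CPM with 10 ng/ml FSH24, against 2.95, 7.47 and 4.61 CPM in untreated libraries. All treated libraries were above all untreated ones, as for 15.7% of all genes tested with FSH21 and 13.8% with FSH24. The fold was 4.30 for FSH21 (log2 2.10, SE 0.31) and 3.93 for FSH24 (log2 1.98, SE 0.31). In the 1 ng/ml groups it stood at 10.9, 15.7 and 12.2 CPM with FSH21 and at 6.73, 4.36 and 8.36 CPM with FSH24, against 4.56, 6.37 and 4.38 CPM in untreated libraries. FSH21 lay above all untreated libraries, as for 6.75% of all genes tested (log2 1.34, SE 0.31), while FSH24 overlapped with them (log2 0.35, SE 0.32).

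Plec, the other cytolinker and Eppk1's neighbour on chromosome 15, stayed within its spread at 10 ng/ml. It was at 417, 456 and 402 CPM with FSH21 and at 405, 427 and 499.9 CPM with FSH24, against 322, 420 and 394 CPM in untreated libraries, and both treated groups overlapped with the untreated one (log2 0.17 and 0.23, SE 0.10 each). In the 1 ng/ml groups it was at 436, 500.2 and 399 CPM with FSH21 and at 369, 361 and 382 CPM with FSH24, against 403, 470 and 453 CPM in untreated libraries. The FSH24 libraries lay below all untreated ones there, as for 5.02% of all genes tested (log2 −0.25, SE 0.10), and the FSH21 libraries overlapped with them (log2 0.01, SE 0.10).

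Vim, the most abundant of the filament genes, differed little. It was at 468, 506 and 494 CPM with 10 ng/ml FSH21 and at 488, 472 and 515 CPM with 10 ng/ml FSH24, against 399, 429 and 435 CPM in untreated libraries. Every treated library was above every untreated one, as for 15.7% of all genes tested with FSH21 and 13.8% with FSH24. The difference was 1.16 times for FSH21 and 1.17 times for FSH24 (log2 0.22, SE 0.06 in each). At 1 ng/ml the values were 470, 461 and 471 CPM with FSH21 and 459, 467 and 523 CPM with FSH24, against 465, 429 and 451 CPM in untreated libraries, and all overlapped (log2 0.06 and 0.11, SE 0.06 each).

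**Figure D3:**
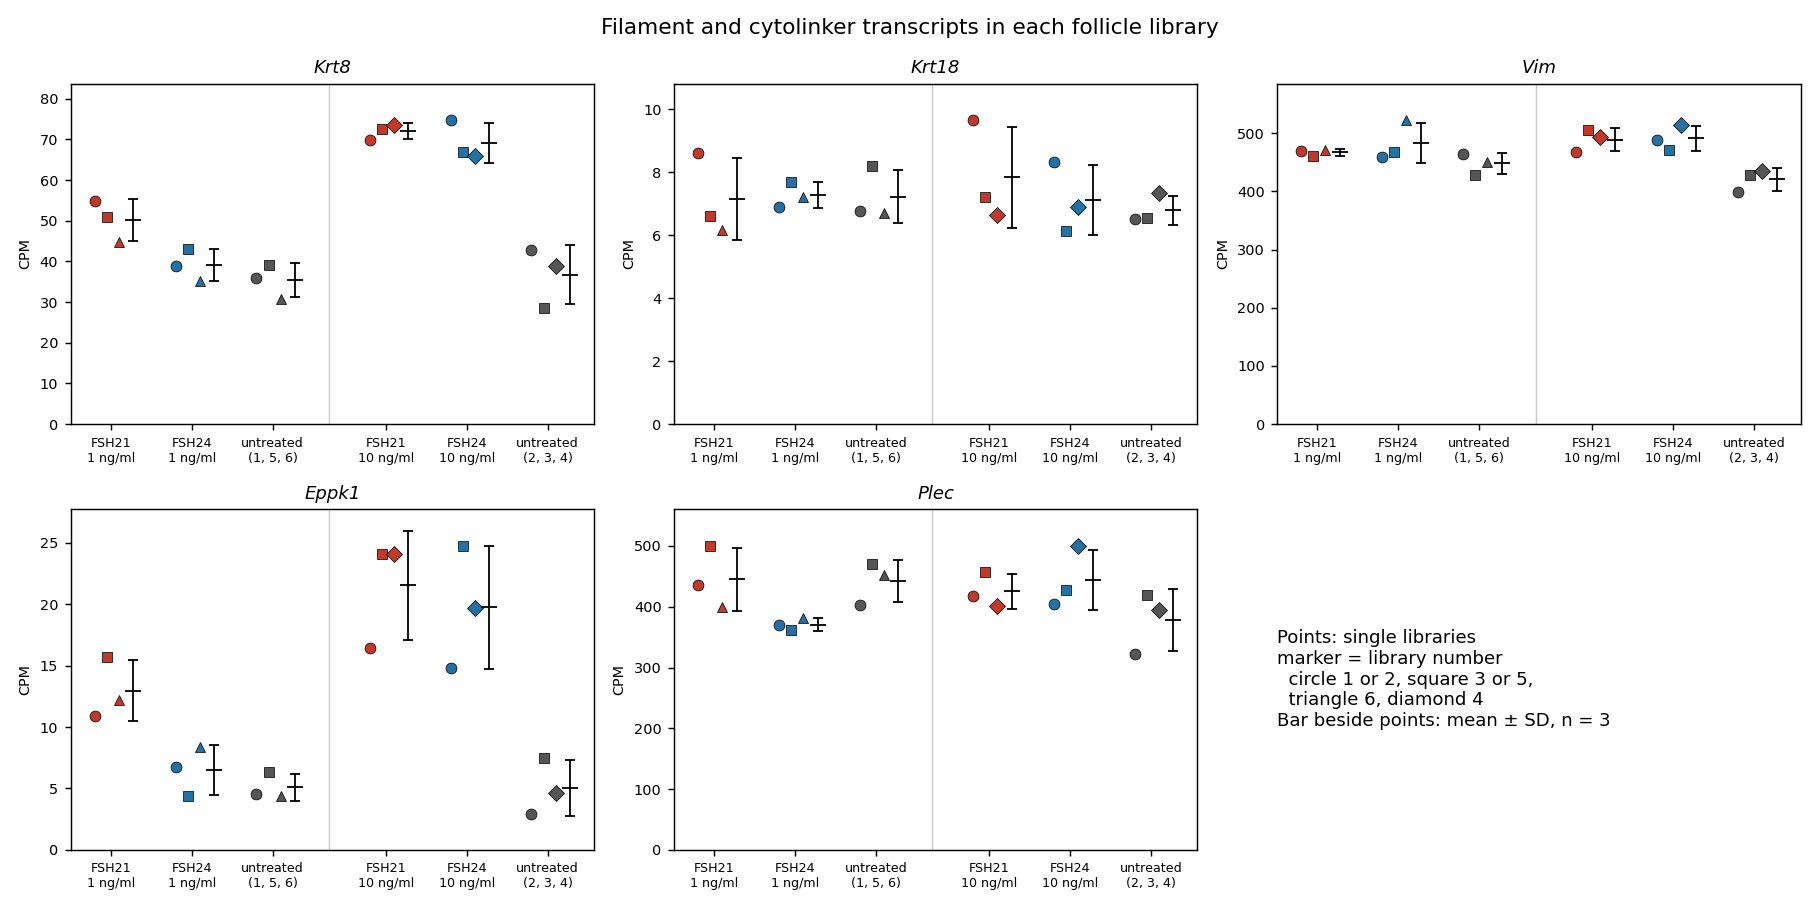
Levels in CPM (linear axes from 0) of Krt8, Krt18, Vim, Eppk1 and Plec in each library by group, with the mean and SD of 3 libraries beside the points. Krt8 and Eppk1 separate both 10 ng/ml groups from their untreated libraries, while Krt18 lies between 6.14 and 9.66 CPM throughout.

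Counted against all genes, 3 of the 8 (Krt8, Eppk1 and Vim) passed an adjusted p of 0.05 with 10 ng/ml FSH21, where 10.2% of the 18727 genes tested did so (5.96% with a higher level, as in all 3). The same 3 passed with 10 ng/ml FSH24, where the share was 8.42% (5.12% higher). Since the genes were chosen on these contrasts, nothing is read from these counts. The call of Vim was lost in most fits that left out 1 library: without treated library 3 or 4 or any 1 untreated library for FSH21, and without treated library 2 or 4 or any 1 untreated library for FSH24. It was also lost for both forms without the filter on low counts and in a fit of the 9 libraries of the dose set, leaving 2 of the 8 genes called. With 1 ng/ml FSH21 none of the 8 passed, and 0.128% of all genes (24) did. With 1 ng/ml FSH24 edgeR called none of the 8 and 0% of all genes, with 1119 genes at an unadjusted p under 0.05 and 1 gene called by DESeq2. The median log2 difference over the 8 genes was 0.51 with FSH21 and 0.22 with FSH24 at 10 ng/ml, and 0.78 with FSH21 and 0.25 with FSH24 at 1 ng/ml, where the median over all genes tested was 0.00 in each. Among the 8 values at 1 ng/ml, those of Krt7, Krt19 and Upk3b were above these medians with both forms.

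**Figure D4:**
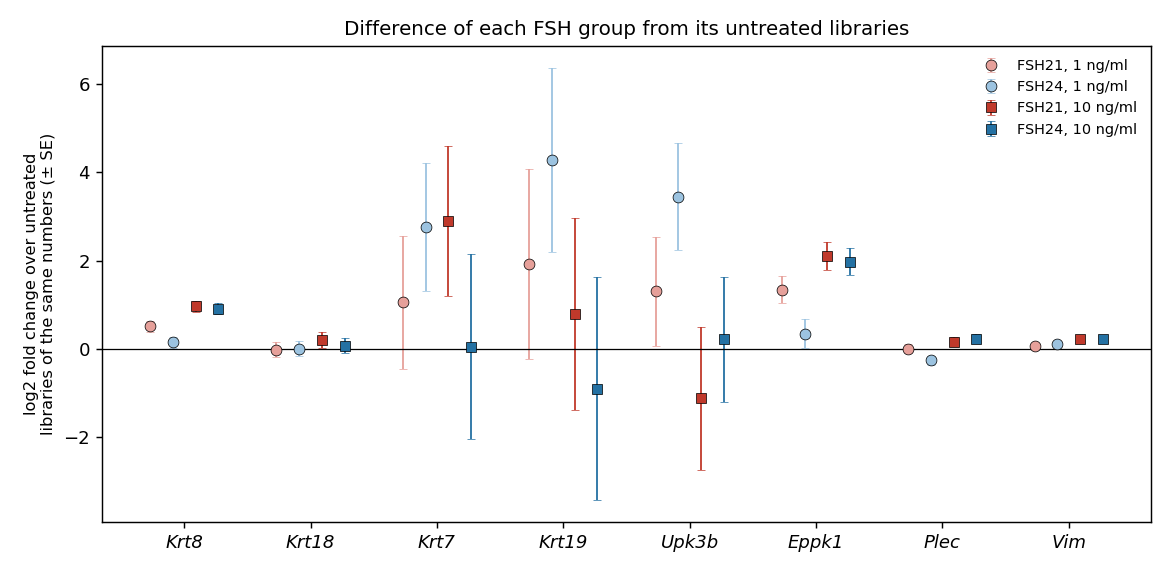
Log2 fold change (± SE) of the 8 genes in each FSH group over the untreated libraries of the same numbers; circles are 1 ng/ml and squares 10 ng/ml, red FSH21 and blue FSH24. Krt8 and Eppk1 are each higher at 10 ng/ml than at 1 ng/ml. Krt7, Krt19 and Upk3b have wide errors, and Krt19 and Upk3b lie highest for 1 ng/ml FSH24.

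The forms of FSH were also compared directly between the treated groups. The 8 genes were chosen with their values in these libraries seen. For them the p-values and intervals below are therefore a description. At 10 ng/ml none of the 8 genes differed between FSH21 and FSH24 (edgeR, adjusted p = 1 for each): the log2 difference was 0.06 for Krt8 (95% interval −0.20 to 0.31) and 0.13 for Eppk1 (−0.49 to 0.74). Upk3b was lower in all 3 FSH21 libraries than in all 3 FSH24 libraries, as were 3.55% of all genes tested, at 2 to 5 against 9 to 10 counts. That comparison called 0% of all genes by edgeR, with 410 at an unadjusted p under 0.05 and 5 genes called by DESeq2. With 1 ng/ml all 3 FSH21 libraries exceeded all 3 FSH24 libraries for Krt8, Eppk1 and Plec, and 7.77% of all genes tested separated in this way. Krt8 averaged 50.2 ± 5.10 CPM with FSH21 and 39.1 ± 3.88 CPM with FSH24 (log2 0.36, SE 0.12, adjusted p = 0.345). Eppk1 averaged 13.0 ± 2.48 CPM with FSH21 and 6.48 ± 2.01 CPM with FSH24 (log2 1.00, SE 0.31, adjusted p = 0.296; DESeq2 adjusted p = 0.0445). Plec averaged 445 ± 51.2 CPM with FSH21 and 371 ± 10.7 CPM with FSH24 (log2 0.26, SE 0.10, adjusted p = 0.426). None of the 3 differences passed the edgeR test, in which 0.0107% of all genes (2) were called. The unadjusted 95% intervals of the log2 differences were 0.10 to 0.62 for Krt8 and 0.34 to 1.65 for Eppk1.

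The effect of 10 ng/ml over untreated libraries minus that of 1 ng/ml gave a further contrast for each form, in which dose cannot be told apart from number set. With FSH24 this log2 difference was 0.77 for Krt8 (SE 0.17), 1.63 for Eppk1 (SE 0.45) and 0.48 for Plec (SE 0.14), and 1 of the 8 genes, Krt8, passed, where 2.45% of all genes did. That call was lost without 1 ng/ml FSH24 library 1 or 6, 10 ng/ml FSH24 library 2 or 4, or untreated library 5. With FSH21 it was 0.46 for Krt8 (SE 0.17) and 0.76 for Eppk1 (SE 0.44), and none of the 8 passed, where 0.272% of all genes did. These contrasts hold the same libraries on which the genes were chosen, so nothing is read from the counts.

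Marker sums of cell types were also compared at 10 ng/ml. Of the sums below, only that of the oocyte markers separated treated from untreated libraries. The 10 oocyte markers summed to between 4035 and 4525 CPM with 10 ng/ml FSH21 and between 4035 and 4310 CPM with 10 ng/ml FSH24, against 4596 to 4806 CPM in untreated libraries, without overlap. The 10 granulosa markers summed to between 8057 and 8679 CPM with FSH21 and between 7618 and 8231 CPM with FSH24, against 6959 to 8495 CPM, with overlap. The 10 stroma and smooth muscle markers summed to between 3024 and 4202 CPM with FSH21 and between 3242 and 4659 CPM with FSH24, against 3248 to 5299 CPM. The 6 theca and steroidogenic markers summed to between 1142 and 1879 CPM with FSH21 and between 1180 and 1798 CPM with FSH24, against 963 to 1232 CPM. The part of these cell types in the differences of Krt8 and Eppk1 was not tested. Among single markers, none of the 10 oocyte genes, the 10 stroma genes, the 6 endothelial genes or the 3 immune genes tested was called at either dose. Of the 10 granulosa genes, 4 rose with 10 ng/ml FSH21 and 3 with 10 ng/ml FSH24, among them Kitl, the ligand of the oocyte's KIT receptor. Of all genes tested, 5.96% rose with FSH21 and 5.12% with FSH24 at that dose, and nothing is read from the counts of these lists. With 1 ng/ml FSH21 Kitl alone of the 10 was called, and it also passed between the forms at 1 ng/ml. Both of these calls were lost without 1 ng/ml FSH21 library 5 and without the 3 libraries numbered 6 together. Of the 6 theca and steroidogenic genes, Cyp17a1 and Star rose with both forms at 10 ng/ml. The 5 red blood cell genes all failed the count filter, and Hbb-bt was at 0 in every library.

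Among the other keratins only Krt79 moved. Of 50 other keratin genes, 12 had no count in any library and 11 were tested. Of these 11, 1 was called with each form at 10 ng/ml. Among all genes tested, 10.2% were called with FSH21 and 8.42% with FSH24, so nothing is read from the count. Krt79, a type II keratin and the nearest tested gene on the Krt7 side of Krt8, 56.4 kb away (chromosome 15, 101929332 to 101940324, minus strand), rose to 11.3 ± 1.34 CPM with 10 ng/ml FSH21 and 8.99 ± 1.67 CPM with 10 ng/ml FSH24, against 5.05 ± 0.241 CPM in untreated libraries (SD, n = 3). The log2 rise was 1.16 (SE 0.17, adjusted p = 0.000222) with FSH21 and 0.83 (SE 0.17, adjusted p = 0.00497) with FSH24, and both calls held without any 1 library. In the 1 ng/ml groups its log2 difference was 0.03 with FSH21 and −0.22 with FSH24, and neither passed. Krt84, a hair and nail type keratin, was the most abundant of the other keratins at 16.5 to 25.2 CPM over all libraries and was not called in any comparison.

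Among the neighbours of Krt8 on the chromosome, only Krt79 was called higher than in untreated libraries, and this at 10 ng/ml alone. Krt76 and Krt1, farther into the cluster, were below 1 CPM in every group mean and were not called. Beyond Krt18, Eif4b, a translation initiation factor gene, fell with FSH21 (log2 −0.34, SE 0.06, adjusted p = 0.000504) and with FSH24 (log2 −0.28, SE 0.06, adjusted p = 0.00322) at 10 ng/ml, and Tns2 was not called. Near Eppk1, Nrbp2 averaged 239 CPM with 10 ng/ml FSH21 and 232 CPM with 10 ng/ml FSH24, against 147 CPM in untreated libraries, and passed with FSH21 (log2 0.70, SE 0.21, adjusted p = 0.0459) but not with FSH24 (0.65, SE 0.21, adjusted p = 0.0710). Its call with FSH21 was lost without treated library 3 or 4 or any 1 untreated library, without the low-count filter (adjusted p = 0.112) and in the fit of 9 libraries (adjusted p = 0.151). Puf60, Parp10, Grina and Gm41349 were not called.

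Of the 5 hemidesmosome genes and plectin partners, 3 rose with each form at 10 ng/ml: Itga6, Cd151 and Col17a1. Of all genes tested, 5.96% rose with FSH21 and 5.12% with FSH24. The median log2 difference of the 5 genes was 0.71 with FSH21 and 0.55 with FSH24, where that of all genes was 0.00. This list, like the other lists here, was chosen with earlier results of these data known. Its count and median are therefore a description, and nothing is read from them. Itga6, the laminin-binding integrin chain that anchors plectin through its beta 4 partner, averaged 1774 ± 88.0 CPM with FSH21 and 1721 ± 85.3 CPM with FSH24, against 692 ± 63.7 CPM in untreated libraries (log2 1.36 and 1.31, SE 0.11 each, adjusted p = 1.89e-07 and 5.6e-07). Cd151, a tetraspanin that binds this integrin, averaged 163 ± 3.47 CPM with FSH21 and 159 ± 5.06 CPM with FSH24, against 109 ± 14.1 CPM (log2 0.58 and 0.55, SE 0.08 each, adjusted p = 8.53e-05 and 0.000234). Col17a1, the transmembrane collagen of hemidesmosomes, averaged 2.93 ± 1.06 CPM with FSH21 and 2.82 ± 0.791 CPM with FSH24, against 0.645 ± 0.176 CPM (log2 2.17 and 2.12, SE 0.39 each, adjusted p = 0.000946 and 0.00157). For Col17a1 the untreated groups were themselves apart, at 1.34 ± 0.391 CPM in libraries 1, 5 and 6 and 0.645 ± 0.176 CPM in libraries 2, 3 and 4, a log2 difference of 1.05 (SE 0.39) that did not pass (adjusted p = 0.901). Itgb4, the integrin chain that binds plectin, was at 2.14 ± 0.474 CPM with FSH21 and 1.73 ± 0.180 CPM with FSH24, against 1.31 ± 0.462 CPM, and the large plakin gene Dst was at 556 ± 49.2 CPM with FSH21 and 583 ± 106 CPM with FSH24, against 540 ± 112 CPM. Neither passed the test.

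At 1 ng/ml, Itga6 averaged 1139 ± 182 CPM with FSH21 and 739 ± 54.1 CPM with FSH24, against 697 ± 77.5 CPM in untreated libraries, and the FSH21 rise passed (log2 0.71, SE 0.10, adjusted p = 0.0163). That call was lost without treated library 1 or 5 or untreated library 6 (adjusted p up to 0.132), without the 3 libraries numbered 6 together (0.0845) and in a fit of the 9 libraries of the dose set (0.124). Cd151 with 1 ng/ml FSH21 had a log2 difference of 0.33 (SE 0.08) that did not pass (adjusted p = 0.146).

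The plakin and desmosome lists held fewer calls. At 10 ng/ml 10.2% of all genes tested were called with FSH21 and 8.42% with FSH24, and nothing is read from the counts of these lists. Of the 5 plakin genes other than Eppk1 and Plec, 1 passed with FSH21 and 0 with FSH24, with medians of −0.06 and 0.04. The gene was Evpl: envoplakin was at 12.4 ± 1.37 CPM with 10 ng/ml FSH21 and 10.5 ± 0.633 CPM with 10 ng/ml FSH24, against 6.84 ± 1.01 CPM in untreated libraries (log2 0.86, SE 0.20, adjusted p = 0.00757 for FSH21; 0.61, SE 0.20, adjusted p = 0.0646 for FSH24). The test between the forms gave an adjusted p of 1, and the FSH21 call was lost without treated library 4 (adjusted p = 0.0505). Dst, Macf1, Dsp and Ppl did not pass. Of 8 desmosome genes tested, 1 passed with each form: Dsc2, a desmosomal cadherin, rose to 29.3 ± 3.37 CPM with 10 ng/ml FSH21 and 29.5 ± 2.65 CPM with 10 ng/ml FSH24, against 11.3 ± 1.99 CPM in untreated libraries (log2 1.38 and 1.39, SE 0.14 each, adjusted p = 5.07e-06 and 7.25e-06). The other 7 desmosome genes did not pass, and among them Dsp, the plakin that links desmosomes to keratin, was at 96.7 ± 10.3 CPM with FSH21 and 102 ± 15.4 CPM with FSH24, against 112 ± 5.19 CPM.

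**Figure D5:**
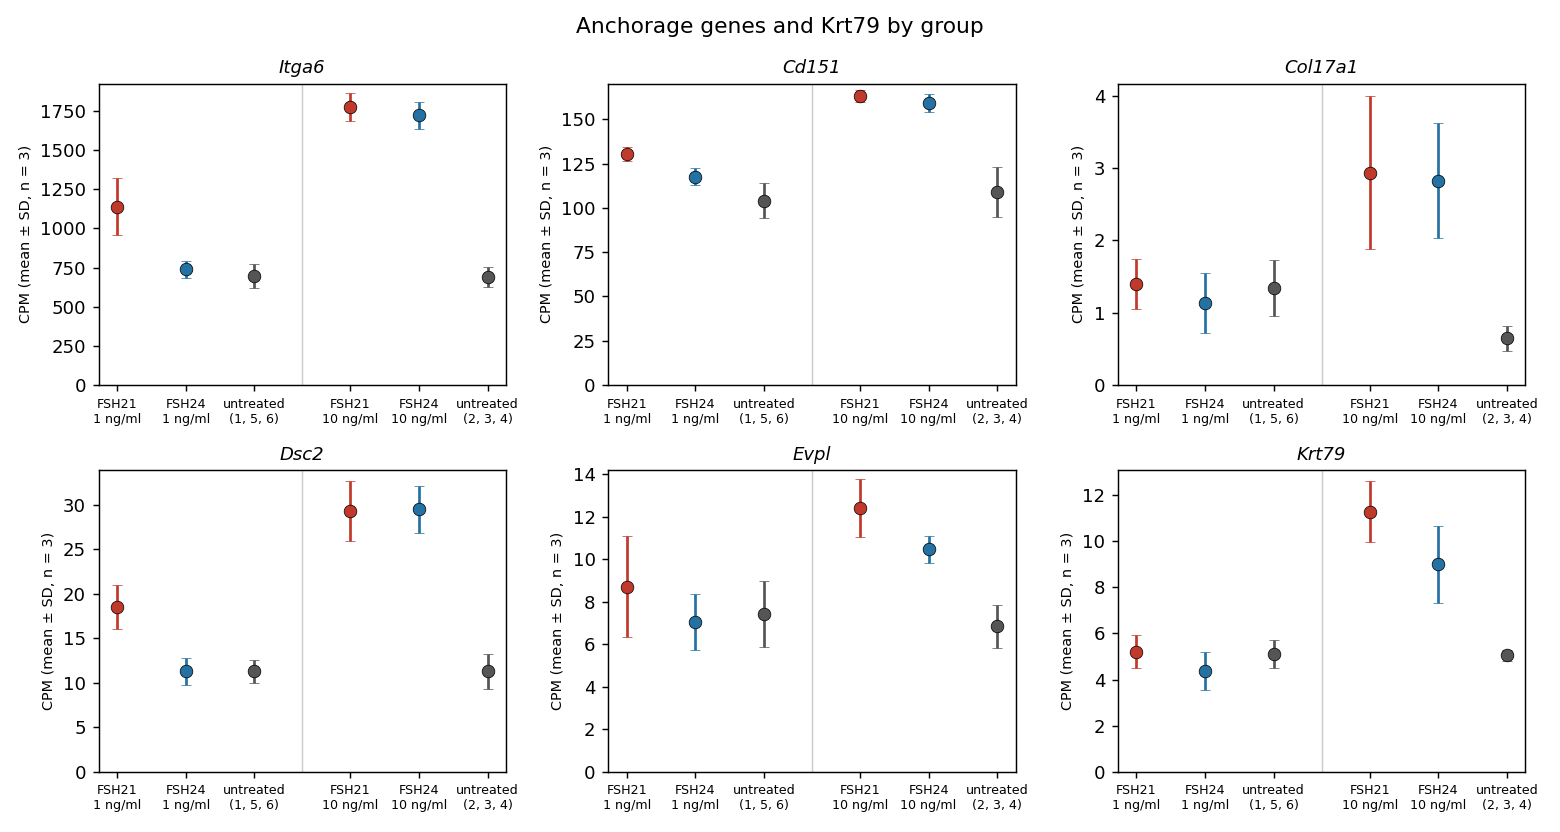
Mean level in CPM (± SD, 3 libraries a group, linear axes from 0) of Itga6, Cd151, Col17a1, Dsc2, Evpl and Krt79. The means of the 10 ng/ml groups lie above those of their untreated libraries in each panel, and the untreated groups of Col17a1 differ from each other at 1.34 and 0.645 CPM.

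The remaining lists moved little. Their counts stand beside 10.2% of all genes called with 10 ng/ml FSH21 and 8.42% with 10 ng/ml FSH24, and nothing is read from them. Of 10 other intermediate filament genes tested, the nuclear lamina genes Lmnb1 and Lmnb2 rose with 10 ng/ml FSH21 (log2 0.39, SE 0.07, adjusted p = 0.00103, and log2 0.27, SE 0.07, adjusted p = 0.0149), and Lmnb1 alone passed with FSH24 (log2 0.39, SE 0.07, adjusted p = 0.00143). The Lmnb2 call was lost without treated library 2 or untreated library 3. Of 14 epithelial regulators tested, none was called with FSH21, and Cdh1, E-cadherin, fell with 10 ng/ml FSH24 to 52.6 ± 6.11 CPM, against 68.9 ± 8.29 CPM in untreated libraries (log2 −0.39, SE 0.12, adjusted p = 0.0446), a call lost without treated library 3 or 4 or untreated library 2 or 4, without the low-count filter (adjusted p = 0.101) and in the fit of 9 libraries (adjusted p = 0.0766). Of 8 mesenchymal regulators, Cdh2, N-cadherin, rose with both forms (log2 0.37 and 0.30, SE 0.08 each, adjusted p = 0.00591 and 0.0258). With FSH21 this call was lost without untreated library 4, and with FSH24 without treated library 2 or 3 or untreated library 3 or 4. Of the 4 other surface epithelium markers tested, none was called at either dose.

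Over the 18 libraries, the genes whose log2 CPM followed Krt8 most closely were Cd151 (Pearson r = 0.977), the glutathione transferase gene Gstm2 (0.976), Cfap126 (0.972), the sialyltransferase gene St3gal2 (0.971) and Foxl2, a granulosa cell transcription factor (0.971). Those closest to Eppk1 were Gm49390 (0.959), Parm1 (0.953), the kinase gene Pak3 (0.952), Ifitm1 (0.947) and Dzip1 (0.940). Krt8 and Eppk1 had an r of 0.81 with each other, and the pairs among Krt7, Krt19 and Upk3b between 0.61 and 0.70. These are descriptions across libraries that share treatments, so any gene that responded to FSH tends to correlate with the others, and the marker values rest on the libraries numbered 6.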

How the data were processed

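The authors deposited 1 table of expected counts, with RSEM named in its columns, in which each library's 4 lanes were already merged (72 lane samples, 18 libraries). STAR 2.7, FastQC, bcl2fastq and the build mm10 come from the submitters' processing notes. Annotation, strand setting and RSEM version are not given in the sources used here. Expected counts were rounded to whole numbers, since 33.9% of those above 0 carried decimals.

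The median library total was 21.4 M. Of 36282 genes with any count, 18727 were kept by filterByExpr of edgeR 4.0.16 (R 4.3.3) with the 6 groups and a minimum count of 10. A robust quasi-likelihood fit over the 18 libraries with TMM scaling gave each comparison, and the Benjamini-Hochberg adjustment ran over the 18727 genes, with calls under 0.05. The main edgeR steps were tried on simulated counts for 10 ng/ml FSH21 against untreated libraries only. The other comparisons and the alternatives were not simulated. The biological coefficient of variation was 0.135. Alternatives were RLE scaling, no filter, only the 9 libraries of a dose set, a replicate block, all 6 untreated libraries as controls, no libraries numbered 6, leaving out each library, and DESeq2 1.42.0.

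Identifiers were matched to GENCODE M21 by ID (52073) or symbol (918, among them Eppk1), and 3700 had no position. Exon lengths are unions of annotated exons. Named genes were the 8 genes, called genes of each list, the 3 nearest tested genes on each side of Krt8 and Eppk1, and the 5 genes most correlated with each of the 2. Uncalled list genes were named by their role after their values were seen. The genes and lists were chosen with earlier results of these data known.

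Same-numbered libraries deviated together in part: 12 of 18 correlations of deviations were over 0.1 (0.0496 to 0.235). All 3 passed only between 10 ng/ml FSH21 and its untreated libraries. In 18 of 18 pairs, however, the library correlated best with the one of its own number. The cut at 0.1 therefore cannot show that the numbers do not pair libraries elsewhere. The main fit used the groups alone without pairing, and its SE and adjusted p-values are unpaired. Pairing entered only through the replicate block.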

Additional observations from a re-analysis of the deposited data

Results flagged for a closer look

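The effect of FSH24 on Krt8 was larger at 10 ng/ml than at 1 ng/ml by 0.77 on the log2 scale (SE 0.17, 95% interval 0.40 to 1.13), a difference between doses that passed the interaction test, in which 2.45% of all genes were called. All 3 libraries of 10 ng/ml FSH24 exceeded their untreated libraries, while those of 1 ng/ml FSH24 overlapped with theirs. Dose and number set cannot be told apart here. The gene was chosen on these contrasts, so the values are a description and nothing is read from the call. The same difference for FSH21 was 0.46 (SE 0.17) and did not pass. The FSH24 call was lost without the filter on low counts and without 1 ng/ml FSH24 library 1 or 6, 10 ng/ml FSH24 library 2 or 4, or untreated library 5. It was kept without the 3 libraries numbered 6 together (log2 0.78).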

How the results depend on the processing

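RLE scaling and DESeq2 kept the direction of all 8 genes in every comparison. With a replicate block, 2819 genes were called with 10 ng/ml FSH21 against 1906 without it (3 of the 8 in both). It called 2547 genes with 10 ng/ml FSH24 and 226 with 1 ng/ml FSH21 (Krt8 and Eppk1 among them, 2 of the 8). Between the forms at 1 ng/ml it called 177. It called 229 for the dose difference of FSH21 and 1180 for that of FSH24 (3 of the 8). The block changed no other call of the 8 genes. Its calls depend on whether the numbers pair libraries, which the labels do not state. In 18 of 18 pairs the library correlated best with the one of its own number, a hint from the data and not the design. All 6 untreated libraries as controls gave 2898 genes with 10 ng/ml FSH21 and 57 with 1 ng/ml FSH21 (1 of the 8). Without the low-count filter, 2 of the 8 were called with each form at 10 ng/ml, 59 genes were called with 1 ng/ml FSH21, 65 between the forms at 1 ng/ml, 102 for the dose difference of FSH21, and 0 of the 8 for that of FSH24. In the 9 libraries of the dose set alone, 2 of the 8 were called with each form at 10 ng/ml, 1 gene was called with 1 ng/ml FSH21 and 1 between the forms at that dose. DESeq2, whose missing adjusted p-values stayed missing, called 103 genes with 1 ng/ml FSH21 (2 of the 8), 1 with 1 ng/ml FSH24, 5 between the forms at 10 ng/ml, 190 at 1 ng/ml (1 of the 8), 159 and 824 (3 of the 8) for the dose differences of FSH21 and FSH24, and 1 between the untreated groups. Without the libraries numbered 6, calls were 1 with 1 ng/ml FSH21, 0 between the forms at 1 ng/ml, and 14 and 225 for the dose differences of FSH21 and FSH24. In that setting the log2 difference between FSH21 and FSH24 at 1 ng/ml reversed for Krt18 (0.0677), Krt7 (1.04), Krt19 (3.64), Upk3b (0.0567) and Vim (0.0126), as did that of Krt8 between the untreated groups (0.0211). The cause was not tested.

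Leaving out 1 library gave 1262 to 1646 called genes with 10 ng/ml FSH21 (fewest without untreated library 4), 999 to 1427 with 10 ng/ml FSH24 (1042 and 999 without treated libraries 2 and 4, and 1010 without untreated library 4), 0 to 21 with 1 ng/ml FSH21, 0 to 1 with 1 ng/ml FSH24, 0 to 1 and 0 to 7 between the forms at 10 and 1 ng/ml, 20 to 68 and 212 to 527 for the dose differences of FSH21 and FSH24, and 0 to 1 between the untreated groups. Of the 8 genes, 2 to 3 stayed called with each form at 10 ng/ml, and 0 to 2 for the dose difference of FSH24. Many fitted log2 differences changed sign when 1 library was left out. Over untreated libraries these were, with 1 ng/ml FSH24, Krt7 −1.40 to 3.32, Krt19 −5.01 to 9.31, Upk3b −0.31 to 4.01 and Krt18 −0.0434 to 0.11; with 1 ng/ml FSH21, Krt7 −0.37 to 1.64, Krt19 −1.38 to 6.94, Upk3b −0.26 to 1.77, Krt18 −0.18 to 0.0784 and Plec −0.0904 to 0.0773; with 10 ng/ml FSH24, Krt7 −0.85 to 0.98, Krt19 −1.47 to 2.20, Upk3b −0.0159 to 0.50 and Krt18 −0.0728 to 0.15; and with 10 ng/ml FSH21, Krt19 −0.39 to 3.90. The dose difference did so for Krt18 (−0.0862 to 0.14), Krt7 (−3.61 to 1.44), Krt19 (−10.2 to 4.10) and Upk3b (−3.80 to 0.51) with FSH24 and for Krt19 with FSH21 (−6.16 to 2.16). It also happened between the forms at 1 ng/ml, Krt18 −0.18 to 0.0633, Krt7 −3.13 to 2.45, Krt19 −5.66 to 6.94, Upk3b −3.71 to 1.61 and Vim −0.0835 to 0.0178; between them at 10 ng/ml, Krt18 −0.0409 to 0.27, Eppk1 −0.0357 to 0.32, Plec −0.12 to 0.0311 and Vim −0.0337 to 0.0281; and between the untreated groups, Krt8 −0.22 to 0.0637, Krt18 −0.0171 to 0.14, Krt19 −5.41 to 2.72 and Eppk1 −0.24 to 0.42. Depth limits Krt7, Krt19 and Upk3b, which held few counts in most libraries.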
